A study of Mus musculus with 6 samples.

Results

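The genes described here are 35 transcripts that mark T lymphocytes and natural killer (NK) cells. They were chosen by symbol from cell-type knowledge, with earlier results of these data known. All 35 were found among the 18476 genes of the deposited table. Expression was measured by bulk RNA sequencing of whole injured femoral arteries from wild-type C57BL/6 mice, 3 days after wire injury. One group of 3 biological replicates received saline around the vessel and the other group of 3 received vasostatin-2, a fragment of the secretory-granule protein chromogranin A. Wire injury and its timing were shared by both groups, no uninjured artery was in the comparison, and the labels place all 6 libraries in 1 batch. The comparison asked how local vasostatin-2 bore on the levels of these genes in the injured vessel wall.

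T cells recognise antigen through a receptor whose signal is carried by the CD3 chains. CD4 on helper and regulatory cells, and CD8 on cytotoxic cells, bind the presenting MHC molecule and bring the kinase Lck to that receptor. NK cells carry no such receptor; they read activating and inhibitory lectin-like and immunoglobulin-like receptors, and share with cytotoxic T cells a store of perforin and granzymes. Both kinds of lymphocyte enter injured arteries in smaller numbers than macrophages and neutrophils.

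Every member was detected in every library, but at low levels. Estimated counts ran from 3 to 859 per library, and the mean over the 6 libraries was below 3 TPM for 21 of the 35 (TPM is the abundance the authors scaled by gene length and library). The highest mean levels were those of Il7r (15.3 TPM), Gzma (15 TPM), Klrd1 (12.8 TPM) and Nkg7 (11.7 TPM), and the lowest were those of Foxp3 (0.393 TPM) and Bcl11b (0.337 TPM). Summed over all 35, the members came to 183, 197 and 148 TPM with saline and 141, 154 and 125 TPM with vasostatin-2 (replicates 1, 2 and 3 in that order). The 5 smooth muscle markers summed to 743 to 1693 TPM with saline and 807 to 2000.5 TPM with vasostatin-2, and the 6 macrophage markers to 4391 to 5195 TPM with saline and 5089 to 6054 TPM with vasostatin-2. The labels name smooth muscle cells as the cell type, whereas the RNA was extracted from whole arteries. In bulk RNA, fewer lymphocytes and less of a transcript in each lymphocyte cannot be told apart, and this holds for every value below.

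Total estimated counts lay between 19333730 and 20105995 per library. Libraries differed in other cell types: the 6 erythroid markers summed to 43388 TPM in saline replicate 2 against 1149 to 9492 TPM elsewhere. Schwann cell markers summed to 554 TPM in saline replicate 3 and to 33.5 to 67.3 TPM in the others. Skeletal muscle markers summed to 1274 TPM in vasostatin-2 replicate 3 and to 85.3 to 119.5 TPM in the others. Counts of members called, and the values of some single genes, are given below with and without these libraries.

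Most members had lower mean levels with vasostatin-2, by amounts that did not pass the test. edgeR's quasi-likelihood test called 0 of the 34 members that passed the low-count filter at a Benjamini-Hochberg adjusted p of 0.05, as it called 0 of all 14557 genes tested (0%). Ifng did not pass that filter. The lowest adjusted p of a member was 0.605. The log2 fold change, vasostatin-2 against saline, was below 0 in 29 of the 34 members (85.3%), beside 50.2% of all genes tested. Their median was -0.33, against -0.00068 over all genes, and single members ran from -1.39 for Lef1 to 0.54 for Ctla4. The 5 members above 0 were Ctla4, Cd28, Foxp3, Gata3 and Il7r.

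At an unadjusted p of 0.05, edgeR marked 4 members, Gzma, Lef1, Nkg7 and Il2rb, all lower with vasostatin-2. That is 11.8% of the members tested, beside 7.14% of all genes tested in either direction with 3.85% in the lower and 3.29% in the higher direction. DESeq2 marked the same 4 and Cd4, beside 6.64% of all genes (3.66% lower). limma-voom marked 3 of the 4, without Il2rb, beside 10.6% of all genes (5.53% lower). After Benjamini-Hochberg adjustment neither tool called a member, while DESeq2 called 0.809% of the genes it adjusted. In the authors' deposited table, 5 members had a p below 0.05, all lower, and 0 had a q below 0.05. The 4 became 2 without saline replicate 1 (beside 7.09% of all genes), 4 without saline replicate 2 (11.3%) and 9 without saline replicate 3 (7.54%). They became 1 without vasostatin-2 replicate 1 (7.38%), 6 without replicate 2 of that group (3.35%) and 1 without its replicate 3 (4.75%). Without saline replicate 2, Cd28 and Il7r were among the 4, both higher. Leaving out replicate 3 of both groups gave 5 (4.91%), and replicate number as a block gave 5 (6.11%). Gzma was among them in each of these fits, and was the only one without vasostatin-2 replicate 1 or without its replicate 3. Nkg7 and Il2rb were not among them without saline replicate 2.

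In 6 members every vasostatin-2 library lay below every saline library in CPM, the count relative to the scaled library size. They were Gzma, Nkg7, Prf1, Il2rb, Bcl11b and Lef1, 17.6% of the members tested, beside 12.8% of all genes in either direction with 6.72% in the lower and 6.07% in the higher direction. No member lay wholly above saline. With fewer libraries more groups stand apart by construction, and the counts that follow are in either direction. Without saline replicates 1, 2 and 3 in turn they were 7, 10 and 17 members, of which 7, 8 and 16 were lower, beside 23.5%, 30.1% and 22.7% of all genes. Without vasostatin-2 replicates 1, 2 and 3 in turn they were 7, 13 and 8, of which 7, 12 and 8 were lower, beside 25.0%, 17.7% and 21.2%. Without replicate 3 of both groups there were 18, of which 17 were lower, beside 33.2%. The members wholly above saline were Cd28 and Il7r without saline replicate 2, and Gata3 without saline replicate 3, without vasostatin-2 replicate 2 or without both replicates 3.

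**Figure D1:**
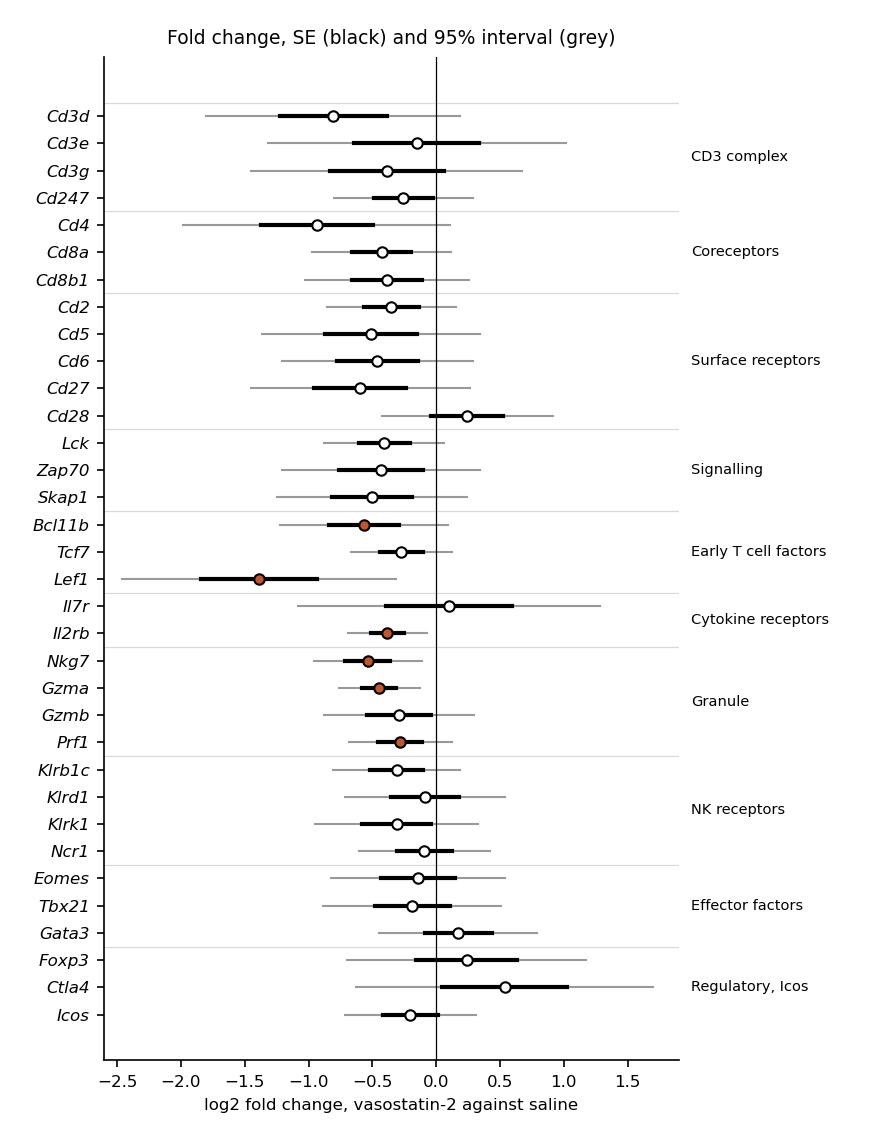
Log2 fold change of the 34 tested members, vasostatin-2 against saline, on the horizontal axis, by class. Circles are estimates, filled where the 3 vasostatin-2 libraries did not overlap the 3 saline libraries in CPM, black bars are 1 SE and grey bars 95% intervals from edgeR. Most circles lie left of 0, and the interval excludes 0 only for Lef1, Il2rb, Nkg7 and Gzma.

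The cytotoxic granule class holds Gzma and Gzmb, serine proteases that enter target cells, Prf1, the pore-forming perforin, and Nkg7, a membrane protein of the granule. The sequences before their RefSeq starts are printed because 3 of the 4 had groups that did not overlap. T-box factors (T-bet and Eomes) and RUNX factors are known regulators of cytotoxic genes. The transcripts of T-bet, Eomes and, of the RUNX factors, Runx3 alone are described below. Each printed sequence is the 250 bases before the start in RefSeq's promoter table (GRCm38.p6), read 5′ to 3′ on the gene's strand. Capitals mark the T-box letters AGGTGT and the RUNX letters ACCACA on either strand (ACACCT and TGTGGT).
Gzma, chr13:113100982-113101231, reverse strand: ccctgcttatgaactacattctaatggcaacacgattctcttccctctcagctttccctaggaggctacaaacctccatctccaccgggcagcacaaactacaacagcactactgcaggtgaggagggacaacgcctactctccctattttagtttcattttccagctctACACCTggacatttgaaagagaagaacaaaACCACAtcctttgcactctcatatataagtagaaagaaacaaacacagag
Nkg7, chr7:43436888-43437137, forward strand: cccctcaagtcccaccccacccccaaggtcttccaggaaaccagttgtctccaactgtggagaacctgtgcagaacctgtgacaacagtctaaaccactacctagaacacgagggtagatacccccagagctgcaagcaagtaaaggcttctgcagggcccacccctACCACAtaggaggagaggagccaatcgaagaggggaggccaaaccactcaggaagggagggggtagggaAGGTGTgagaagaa
Prf1, chr10:61297586-61297835, forward strand: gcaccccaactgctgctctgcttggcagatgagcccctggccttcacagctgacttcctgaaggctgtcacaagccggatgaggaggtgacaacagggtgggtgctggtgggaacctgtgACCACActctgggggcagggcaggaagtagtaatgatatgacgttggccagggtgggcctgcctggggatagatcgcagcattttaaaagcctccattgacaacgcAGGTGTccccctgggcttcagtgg
Gzmb, chr14:56262335-56262584, reverse strand: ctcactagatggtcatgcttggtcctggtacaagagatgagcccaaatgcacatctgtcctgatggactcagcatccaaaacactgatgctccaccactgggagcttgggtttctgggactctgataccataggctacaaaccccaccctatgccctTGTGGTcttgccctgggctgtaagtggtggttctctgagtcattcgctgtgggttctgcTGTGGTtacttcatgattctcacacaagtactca
The first 3 hold both sets of letters, and the Gzmb window holds the RUNX letters in 2 places and the T-box letters in none. Of all 32817 windows of this length in the table, 11.8% hold the T-box letters, 14% the RUNX letters and 2.13% both. Among the 26 members with an entry, 3 hold both in 1 window (Gzma, Nkg7 and Prf1). Members with several windows are counted once here, and the letters were chosen after the values were seen. Enrichment was not tested. Another annotated start of Nkg7 lies 65 bases before the end of its window, and the deposited table starts Prf1 85 bases before the end of its window. The T-box letters of both genes, nearer the end than that, thus lie past these starts and the RUNX letters before them. The bases just after the Gzmb start were in 0 of its GENCODE M21 transcripts, so that start was not matched there. No base of the Gzmb window lies inside the deposited gene. A match of letters is a description and shows no binding.

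All 4 granule genes were lower in mean CPM with vasostatin-2, and in 3 of them the groups did not overlap. Over all genes tested the groups did not overlap in 12.8%, with 6.72% in the lower direction. Gzma (chr13:113093824-113100981) was at 6.77, 7.96 and 6.63 CPM in the saline libraries (replicates 1, 2 and 3) and 5.06, 5.21 and 5.41 CPM in the treated libraries. The lowest saline library was above the highest vasostatin-2 library, and the means were 7.12 ± 0.729 CPM for saline (SD, n = 3) and 5.22 ± 0.177 CPM for treatment (SD, n = 3), log2 fold change -0.45, SE 0.13, unadjusted p = 0.0132, adjusted p = 0.605. Nkg7 (chr7:43437138-43438246) was at 4.75, 5.89 and 5.03 CPM under saline and 3.32, 4.20 and 3.27 CPM under treatment, in the same replicate order (log2 fold change -0.54, SE 0.18, unadjusted p = 0.0199, adjusted p = 0.649). Prf1 (chr10:61297751-61304684) was at 3.03, 3.51 and 3.39 CPM under saline and 2.76, 2.75 and 2.65 CPM under treatment. Perforin thus also stood apart by group, with a smaller log2 difference than Gzma or Nkg7 (log2 fold change -0.28, SE 0.17, unadjusted p = 0.142, adjusted p = 0.765). Gzmb (chr14:56258836-56262334) was at 8.08, 4.96 and 6.68 CPM under saline and 3.98, 5.61 and 6.53 CPM under treatment, and here saline replicate 2 lay below 2 of the 3 vasostatin-2 libraries (log2 fold change -0.29, SE 0.25, unadjusted p = 0.281, adjusted p = 0.846).

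Summed over the 4 genes, the granule class came to 44.3, 42.3 and 42.4 TPM with saline and 28.6, 33.6 and 32.8 TPM with vasostatin-2, replicates in order. The saline sums were thus close to each other, and the groups were apart by more than the spread in either. Leaving out any 1 replicate kept the class median of the log2 fold change between -0.46 and -0.35, and that of Gzma between -0.49 and -0.36. Gzmb is also made by mast cells and plasmacytoid dendritic cells. Mast cell markers had a median log2 fold change of -0.44, with 6 of 6 below 0, and summed to 91.8 to 304 TPM with saline and 115 to 226 TPM with vasostatin-2. The part of mast cell RNA in the Gzmb values was not tested.

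**Figure D2:**
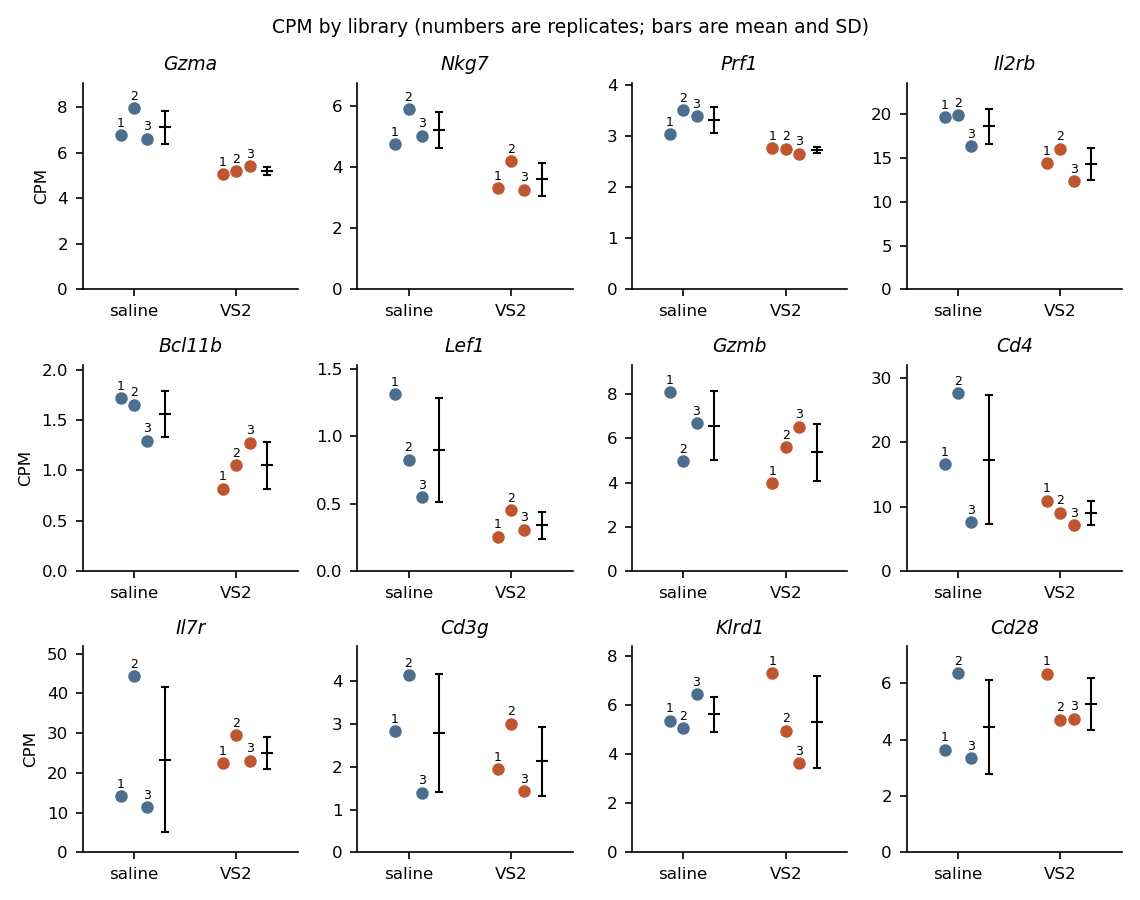
CPM of 12 members in each library, with saline at the left and vasostatin-2 (VS2) at the right of each panel. Points are libraries labelled by replicate number, and bars give the mean and SD of 3. In the upper row and in Bcl11b and Lef1 the groups do not overlap, while in the other 6 panels they do. Saline replicate 2 is highest for Cd4, Il7r, Cd3g and, by a narrow margin, Cd28.

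Of the 2 cytokine receptors, Il2rb did not overlap between the groups and Il7r did. Il2rb (chr15:78479256-78512548), the chain that binds interleukin-2 and interleukin-15 on NK cells and effector T cells, was at 19.7, 19.9 and 16.3 CPM in the saline libraries (replicates 1, 2 and 3) and 14.4, 16.1 and 12.4 CPM in the treated libraries. Saline replicate 3 exceeded vasostatin-2 replicate 2 by a narrow margin (log2 fold change -0.38, SE 0.13, unadjusted p = 0.0222, adjusted p = 0.666). Its log2 fold change was -0.34 without saline replicate 1, -0.33 without saline replicate 2 and -0.47 without saline replicate 3.

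Il7r (chr15:9506159-9529876), the interleukin-7 receptor of naive and memory T cells and innate lymphoid cells, was at 14.2, 44.4 and 11.4 CPM under saline and 22.4, 29.5 and 23.1 CPM under treatment, replicates in order. Saline replicate 2 was the highest library, and the other 2 saline libraries were below all 3 vasostatin-2 libraries. The mean difference was therefore near 0 (log2 fold change 0.10, SE 0.50, unadjusted p = 0.844, adjusted p = 0.979), and it was -0.16, 0.97 and -0.23 with saline replicate 1, 2 or 3 left out, and -0.035 without vasostatin-2 replicate 2. Its 95% interval ran from -1.08 to 1.29. Il7r is also found on activated dendritic cells and some macrophages, and their part in its values was not tested.

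The CD3 complex was lower in mean with vasostatin-2 in all 4 chains, but its libraries overlapped. Cd3d, Cd3e and Cd3g encode the delta, epsilon and gamma chains and lie together on chromosome 9, with Cd3g and Cd3d 1337 bp apart, and Cd247 encodes the zeta chain that carries most of the signalling motifs. Cd3g (chr9:44969572-44980431) was at 2.83, 4.13 and 1.40 CPM in the saline libraries (replicates 1, 2 and 3) and 1.94, 3.0 and 1.43 CPM in the treated libraries (log2 fold change -0.39, SE 0.45, unadjusted p = 0.415, adjusted p = 0.889). Cd247 (chr1:165779952-165871153) was at 6.47, 6.04 and 4.48 CPM under saline and 5.92, 4.60 and 3.67 CPM under treatment (log2 fold change -0.26, SE 0.23, unadjusted p = 0.299, adjusted p = 0.851). Saline replicate 2 was the highest library for Cd3d, Cd3e and Cd3g, and saline replicate 3 was as low as the lowest vasostatin-2 libraries for Cd3g. Log2 fold changes were -0.81 for Cd3d, with counts of 9.03 to 38.44, and -0.15 for Cd3e, with counts of 11 to 44. Without saline replicate 2 they were 0.0098 for Cd3g and 0.37 for Cd3e, so the direction of both rested on that library. The sums of the 4 chains were 19.4, 22.1 and 11.4 TPM with saline and 14.5, 16.8 and 9.42 TPM with vasostatin-2, in which saline replicate 3 was below vasostatin-2 replicates 1 and 2.

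All 3 coreceptors were lower in mean with vasostatin-2 and highest in saline replicate 2. Cd4 (chr6:124864693-124888247) was at 16.6, 27.6 and 7.62 CPM in the saline libraries (replicates 1, 2 and 3) and 10.9, 9.06 and 7.09 CPM in the treated libraries. The 2 upper saline libraries were above all vasostatin-2 libraries, and saline replicate 3 lay within them (log2 fold change -0.94, SE 0.44, unadjusted p = 0.0719, adjusted p = 0.711). Its log2 fold change was -0.42 without saline replicate 2, the highest library, and -1.29 without saline replicate 3. Mouse Cd4 is carried by helper and regulatory T cells and also by some dendritic cells and macrophages, whose part in these values was not tested. The 6 dendritic cell markers summed to 50.4, 92.6 and 40.9 TPM with saline and 51.6, 47.1 and 36.5 TPM with vasostatin-2. The high sum of saline replicate 2 came from Itgax (70.7 TPM there, 19.5 to 28.4 TPM elsewhere), a gene also made by macrophages. Without Itgax, left out after its values were seen, the sums were 23.5, 21.9 and 21.4 TPM under saline and 23.6, 18.7 and 16.9 TPM under treatment, and saline replicate 2 was not the highest.

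Cd8a (chr6:71373427-71379171) and Cd8b1 (chr6:71322788-71337492) encode the alpha and beta chains of CD8, the second of which marks cytotoxic T cells more strictly. Cd8a was at 4.24, 5.63 and 3.24 CPM under saline and 3.17, 3.25 and 3.32 CPM under treatment, replicates in order, and its vasostatin-2 libraries lay close together just at the level of saline replicate 3 (log2 fold change -0.43, SE 0.23, unadjusted p = 0.105, adjusted p = 0.740). Cd8b1 was at 2.98, 4.34 and 2.69 CPM under saline and 3.01, 2.70 and 1.94 CPM under treatment, and the groups overlapped (log2 fold change -0.39, SE 0.27, unadjusted p = 0.198, adjusted p = 0.806). The ratio of both CD8 chains to Cd4, in TPM, was 0.623, 0.529 and 1.17 under saline and 0.857, 0.985 and 1.04 under treatment. Saline replicates 1 and 2 had the lowest ratios and saline replicate 3 the highest, so the groups overlapped. Saline replicate 2 was the highest library for both chains. Without it the log2 fold changes were -0.20 and -0.15.

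Of the surface receptors of T cells, Cd2, Cd5, Cd6 and Cd27 were lower in mean and Cd28 was higher. Cd2, an adhesion receptor shared by T and NK cells, was at 5.71, 4.03 and 5.18 CPM in the saline libraries (replicates 1, 2 and 3) and 3.17, 4.65 and 3.88 CPM in the treated libraries (log2 fold change -0.35, SE 0.21, unadjusted p = 0.145, adjusted p = 0.767). Cd28, the main costimulatory receptor of T cells, was at 3.64, 6.35 and 3.34 CPM under saline and 6.33, 4.71 and 4.75 CPM under treatment (log2 fold change 0.24, SE 0.28, unadjusted p = 0.416, adjusted p = 0.889). Its highest libraries were saline replicate 2 and vasostatin-2 replicate 1, and its log2 fold change was 0.59 without saline replicate 2. Cd5 and Cd6, related scavenger-receptor proteins that tune receptor signals, had log2 fold changes of -0.51 and -0.46, and the costimulatory receptor Cd27 had -0.59. All 3 had unadjusted p-values from 0.144 to 0.200 in edgeR.

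All 3 signalling proteins close to the receptor were lower in mean. Lck (chr4:129548344-129573641), the kinase that starts the cascade, was at 8.29, 9.20 and 5.98 CPM under saline and 5.41, 6.86 and 5.41 CPM under treatment, replicates in order (log2 fold change -0.41, SE 0.20, unadjusted p = 0.0802, adjusted p = 0.715). Saline replicates 1 and 2 were above all vasostatin-2 libraries, and saline replicate 3 was within them. Zap70, the kinase that binds the phosphorylated chains, was at 2.53, 2.69 and 1.49 CPM under saline and 1.58, 2.15 and 1.22 CPM under treatment and had its saline libraries in the same order (log2 fold change -0.43, SE 0.33, unadjusted p = 0.228, adjusted p = 0.819). The adaptor Skap1 had a log2 fold change of -0.50 (SE 0.31).

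**Figure D3:**
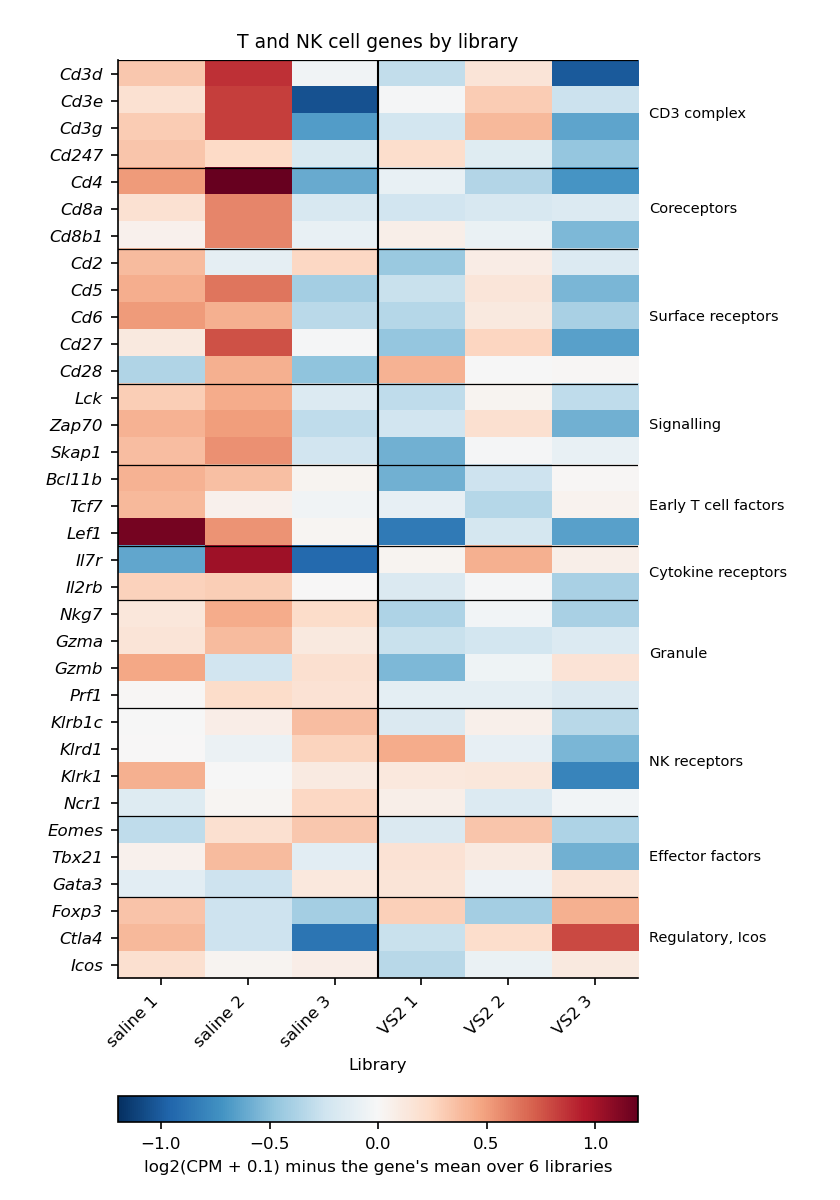
Level of the 34 tested members in each library, as log2(CPM + 0.1) minus the gene's mean over the 6 libraries. Rows are genes grouped by class, columns are libraries, red is above and blue below the gene's mean, and colours stop at the ends of the scale. Saline replicate 2 holds the highest value in 18 of the 34 rows and vasostatin-2 replicate 3 the lowest in 17.

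The transcription factors that establish and keep T cell identity were lower in mean with vasostatin-2 in all 3 cases. Bcl11b (chr12:107910403-108004145), which commits progenitors to the T lineage, was at 1.72, 1.65 and 1.30 CPM in the saline libraries (replicates 1, 2 and 3) and 0.817, 1.05 and 1.28 CPM in the treated libraries. The groups did not overlap, with little distance between saline replicate 3 and vasostatin-2 replicate 3 (log2 fold change -0.57, SE 0.28, unadjusted p = 0.0805, adjusted p = 0.715). Lef1 (chr3:131109026-131224357), a partner of beta-catenin found in naive T cells and also in fibroblasts and hair follicles, was at 1.31, 0.827 and 0.548 CPM under saline and 0.255, 0.450 and 0.306 CPM under treatment. The groups stood apart (log2 fold change -1.39, SE 0.45, unadjusted p = 0.0182, adjusted p = 0.631), on counts of 5 to 26 per library. Counting error alone was 28.6% at its mean count. Tcf7, the related factor TCF-1, was at 10.9, 8.58 and 8.02 CPM under saline and 7.71, 6.51 and 8.52 CPM under treatment, and vasostatin-2 replicate 3 lay above saline replicate 3 (log2 fold change -0.27, SE 0.17, unadjusted p = 0.148, adjusted p = 0.767).

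NK receptors overlapped between the groups in all 4 members. Klrd1 (chr6:129588092-129598775), the CD94 chain that pairs with NKG2 receptors, was at 5.36, 5.06 and 6.43 CPM in the saline libraries (replicates 1, 2 and 3) and 7.30, 4.96 and 3.62 CPM in the treated libraries. Vasostatin-2 replicate 1 was the highest library and replicate 3 of that group the lowest (log2 fold change -0.086, SE 0.27, unadjusted p = 0.757, adjusted p = 0.962). Without vasostatin-2 replicate 3 the log2 fold change was 0.13, and without saline replicate 3 it was 0.024. Klrk1 (chr6:129610323-129623903), the activating receptor NKG2D of NK cells and CD8 T cells, was at 9.04, 6.66 and 7.23 CPM under saline and 7.30, 7.36 and 3.83 CPM under treatment (log2 fold change -0.31, SE 0.27, unadjusted p = 0.288, adjusted p = 0.848), and without vasostatin-2 replicate 3 its value was -0.061. Klrb1c, which encodes the NK1.1 antigen of C57BL/6 mice, had a log2 fold change of -0.31 (SE 0.21). Ncr1, the receptor NKp46 and the most restricted NK marker of the list, had -0.092 (SE 0.22), with a 95% interval from -0.61 to 0.42 and a value of 0.028 without saline replicate 3. Klrb1c, Klrd1 and Klrk1 lie in the NK gene complex on chromosome 6, where related lectin receptors are similar in sequence, so that reads could be shared among them.

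The NK receptor class summed to 28.1, 23.0 and 28.4 TPM with saline and 29.4, 24.7 and 17.6 TPM with vasostatin-2, replicates in order, and its groups overlapped, where those of the granule class did not. The ratio of the granule sum to the NK receptor sum overlapped too, at 1.58, 1.84 and 1.49 under saline and 0.974, 1.36 and 1.86 under treatment. Vasostatin-2 replicate 3 had both the lowest NK receptor sum and the highest such ratio. Relative to the CD3 complex, the granule sum was at 2.28, 1.92 and 3.70 under saline and 1.97, 2.0 and 3.48 under treatment, highest in replicate 3 of each group. The median log2 fold changes were -0.20 for NK receptors, -0.37 for granule genes and -0.32 for the CD3 complex. The difference between these classes was not tested. Eomes and Tbx21 (T-bet), the T-box factors of NK cells and cytotoxic T cells, had log2 fold changes of -0.14 (SE 0.29) and -0.19 (SE 0.29). Tbx21 was at 1.87, 2.38 and 1.64 CPM under saline and 2.04, 1.95 and 1.17 CPM under treatment, and only vasostatin-2 replicate 3 lay below the saline range. Without that library the log2 fold changes were 0.025 for Tbx21 and 0.0055 for Eomes.

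**Figure D4:**
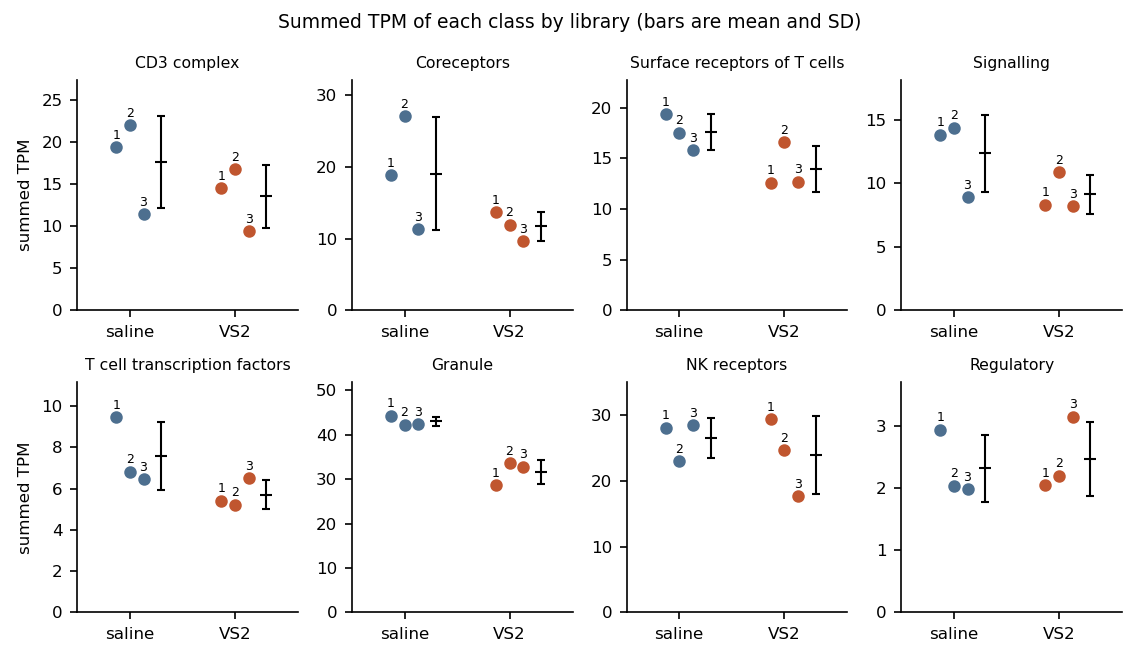
Summed TPM of 8 classes of members in each library, with saline at the left and vasostatin-2 (VS2) at the right of each panel. Points are libraries labelled by replicate number, and bars give the mean and SD of 3. The granule class is at 42.3 to 44.3 TPM with saline and 28.6 to 33.6 TPM with vasostatin-2. In all the other classes shown the groups overlap.

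Several helper and regulatory genes were scarce. Gata3, the factor of type 2 helper cells and innate lymphoid cells, had counts of 16 to 22 and a log2 fold change of 0.17 (SE 0.26). Ifng, the cytokine of type 1 helper, cytotoxic and NK cells, had estimated counts of 19, 4 and 6 with saline and 3, 8 and 6 with vasostatin-2, and no difference was detectable at this depth. The 4 tested members of the helper class (Cd4, Gata3, Tbx21 and Icos) had a median log2 fold change of -0.19. Those of the cytotoxic T class (Cd8a, Cd8b1, Eomes and Tbx21) had -0.29.

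In the regulatory class (Foxp3, Ctla4 and Icos) the median was 0.24, and those of the helper, cytotoxic T, granule and NK receptor classes were below 0. It was -0.12 without replicate 3 of both groups, so its direction rested on those libraries, and no difference between classes was tested. Foxp3 (chrX:7579676-7595243), the defining factor of regulatory T cells, was at 0.909, 0.568 and 0.498 CPM in the saline libraries (replicates 1, 2 and 3) and 0.868, 0.501 and 0.970 CPM in the treated libraries (log2 fold change 0.24, SE 0.40, unadjusted p = 0.565, adjusted p = 0.926). Ctla4, an inhibitory counterpart of Cd28 found on regulatory cells, was at 0.859, 0.517 and 0.299 CPM under saline and 0.511, 0.751 and 1.17 CPM under treatment (log2 fold change 0.54, SE 0.49, unadjusted p = 0.312, adjusted p = 0.853). Its highest library was vasostatin-2 replicate 3 and its lowest saline replicate 3, and without those 2 libraries the log2 fold changes were -0.12 for Ctla4 and -0.11 for Foxp3. Icos, an inducible costimulator of helper and regulatory cells, was at 2.32, 2.07 and 2.14 CPM under saline and 1.58, 1.9 and 2.19 CPM under treatment (log2 fold change -0.20, SE 0.22, unadjusted p = 0.386, adjusted p = 0.881). The groups overlapped in all 3, and counting error at the mean count was 26.7% for Foxp3 and 27.2% for Ctla4. The 95% intervals ran from -0.70 to 1.18 and from -0.63 to 1.70. Cd28, Ctla4 and Icos are neighbours on chromosome 1 and span 253.9 kb. In the annotation Foxp3 overlaps Ccdc22 and Ppp1r3f on the other strand, as Cd27 does Vamp1 and Cd247 does Pou2f1. Whether counting used strand is not known here, so reads of such pairs cannot be told apart.

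A wider list was chosen with earlier results of these data known and read in the same 6 libraries, so it is no independent support. It held 78 further T and NK cell genes, listed by function, and was mostly below 0. Of these 69 were measured and 56 passed the low-count filter, 42 of them below 0 and 14 above, with a median log2 fold change of -0.25. None passed the adjusted threshold in edgeR. At an unadjusted p of 0.05 there were 8, all lower, and in 9 every vasostatin-2 library lay below every saline library, against 1 the other way, Rhoh. Over all genes tested, 7.14% had such a p (3.85% lower) and 12.8% such groups. Without vasostatin-2 replicate 3 the 8 became 2 (beside 4.75% of all genes), without saline replicate 1 they became 5 (7.09%), and without saline replicate 3 they became 14 (7.54%).

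Several of the 8 act beside members already described. Sh2d2a, an adaptor that binds Lck, was at 5.0, 5.06 and 4.88 CPM under saline and 3.63, 3.15 and 3.83 CPM under treatment, replicates in order (log2 fold change -0.49, SE 0.15, unadjusted p = 0.0144, adjusted p = 0.605). Its groups did not overlap. Lat, the scaffold that Zap70 phosphorylates, had a log2 fold change of -0.69 (SE 0.29) with overlapping groups, and Pdcd1, the inhibitory receptor PD-1, had -0.85 (SE 0.30). The RUNX factor of cytotoxic lymphocytes, Runx3, was at 29.1, 17 and 15.4 CPM under saline and 14, 12.2 and 13.8 CPM under treatment (log2 fold change -0.62, SE 0.24, unadjusted p = 0.0404, adjusted p = 0.684), with saline replicate 1 far above the rest. Without that library its log2 fold change was -0.28. Cd244a, the NK receptor 2B4, had -0.60 (SE 0.24).

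The most abundant genes of the wider list are shared with other cells. Il2rg, the common gamma chain that pairs with Il2rb and Il7r and is also made by myeloid cells, was at 178, 191 and 148 CPM under saline and 132, 128 and 144 CPM under treatment (log2 fold change -0.36, SE 0.11, unadjusted p = 0.0125, adjusted p = 0.605). Klf2, a factor of resting T cells and endothelium, was at 155, 111 and 143 CPM under saline and 112, 154 and 160.3 CPM under treatment and had a log2 fold change of 0.062 (SE 0.17).

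Markers of other leukocytes and of blood also differed in mean between the groups. Of the 6 neutrophil markers, 6 were below 0, with a median log2 fold change of -1.0, and they summed to 779.7, 895 and 525 TPM with saline and 585, 199.8 and 279 TPM with vasostatin-2. The 6 erythroid markers were all below 0 with a median of -2.43 and summed to 7012 to 43388 TPM with saline and 1149 to 8704 TPM with vasostatin-2. Macrophage markers were above 0 in 5 of 6, with a median of 0.26. In 3 of the 6 (Adgre1, C1qa and C1qb) edgeR's unadjusted p was under 0.05 and every vasostatin-2 library lay above saline. Over all genes these shares were 3.29% and 6.07% in the higher direction. The lowest adjusted p of a macrophage marker was 0.579. B cell markers were below 0 in 3 of 6, with sums of 11.4 to 29.8 TPM with saline and 17.8 to 24.8 TPM with vasostatin-2. The 6 lymph node stroma and follicle markers summed to 412 to 670.1 TPM with saline and 551 to 1002 TPM with vasostatin-2, most of it Ccl21a, a chemokine of lymphatic endothelium and of lymph node stroma. Ccl21a was at 355, 349.6 and 592 TPM under saline and 491, 950.1 and 647 TPM under treatment (log2 fold change 0.70, SE 0.29, edgeR unadjusted p = 0.0480, adjusted p = 0.695). Glycam1, a ligand on lymph node venules, was at 4.17, 2.90 and 3.38 TPM under saline and 1.94, 0.350 and 0.880 TPM under treatment without overlap (log2 fold change -1.69, SE 0.53, edgeR unadjusted p = 0.0152, adjusted p = 0.611). Ccl19 ranged from 32.5 to 47.2 TPM and Cxcl13 from 5.8 to 39.5 TPM, while Cr2 was at 0.130 TPM or less and Madcam1 at 1.03 TPM or less. The 6 markers of type 2 innate lymphoid cells summed to 16.2 to 31.2 TPM with saline and 22.5 to 38.4 TPM with vasostatin-2, of which Il1rl1, also found on mast cells, ranged from 12.2 to 34.4 TPM (log2 fold change 0.43, SE 0.31) and Rora from 3.09 to 3.98 TPM. Il5 and Il13 were at 0.400 and 0.730 TPM at most. No list of these markers held a gene at 0 in every library. The part of blood, lymph node tissue or other leukocytes in the lymphocyte values was not tested.

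**Figure D5:**
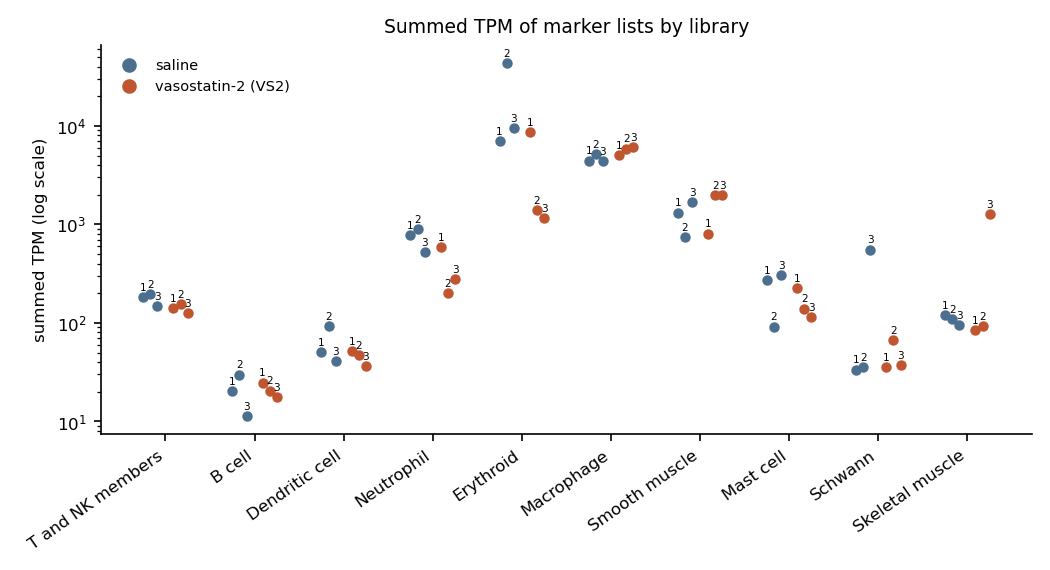
Summed TPM of the 35 members and of marker lists of other cell types in each library, on a log axis. Blue points are saline and orange points vasostatin-2 (VS2) libraries, labelled by replicate number. The members span 125 to 197 TPM, below the macrophage, smooth muscle and neutrophil lists. Saline replicate 2 is highest for the members and for the B cell, neutrophil and erythroid lists. It is also highest for the dendritic cell list, through Itgax alone.

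Read by library, the median of all members set saline replicates 1 and 2 apart from the other 4. Saline replicate 2 held the highest CPM of 18 members and saline replicate 1 of 9, and vasostatin-2 replicate 3 held the lowest of 17. The median distance of the members from their own mean, in log2 units, was 0.29 and 0.38 in saline replicates 1 and 2 and -0.041 in saline replicate 3. In vasostatin-2 replicates 1, 2 and 3 it was -0.20, -0.017 and -0.32. Saline replicate 3 thus lay nearest to vasostatin-2 replicate 2, although its Gzma, Nkg7 and Prf1 were above all vasostatin-2 libraries. Not every class followed this order. For the NK receptors the same median was 0.0021, 0.0080 and 0.26 in saline replicates 1, 2 and 3. It was 0.099, -0.022 and -0.44 in vasostatin-2 replicates 1, 2 and 3. The median coefficient of variation of the members was 23.1% with saline and 21.4% with vasostatin-2, beside 11.2% and 7.75% over all genes, many of which have higher counts.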

How the data were processed

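HISAT2 2.1.0 and DESeq2 1.26.0 are listed without roles, with the build GRCm38.p6, per the submitters' processing notes. The counting tool and strandedness are not given in the sources used here. The deposited table holds an estimated count per gene and library (65.6% of them whole), TPM and FPKM values, and the authors' log2 fold changes with p-values and q-values. The authors' FPKM values were not used. For 13 members an estimated count was not whole.

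Estimated counts were rounded, filtered with filterByExpr (14557 genes kept), scaled by TMM and tested with edgeR 4.0.16 (R 4.3.3, robust quasi-likelihood, treatment as the only term), with Benjamini-Hochberg adjustment over all genes kept. The biological coefficient of variation was 16.1%. Alternatives were DESeq2 1.42.0, limma 3.58.1 (voom, weighted by library quality), other scalings and filters, replicate number as a block, and each replicate left out. Scripts were tested on simulated data. DESeq2 left the adjusted p of 3 members undefined. Depth was 19333730 to 20105995 counts, at which 3 counts are 0.149 to 0.155 CPM. The submitters call the 3 libraries of a group biological replicates, and none looked like a repeat of another.

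The members and lists were chosen with earlier results of these data known. Per-library values are given for members with an unadjusted p under 0.05 or with groups that did not overlap, and for the 2 members of each class with the highest mean TPM. Gzmb and Foxp3 were added after their values were seen, as were the motif letters. From the wider list the rule took up to 8 genes with an unadjusted p under 0.05 and the 2 with the highest mean TPM, and some of these genes are not reported here. Coordinates are those of the deposited table, whose strand differs from GENCODE M21 for Cd3e, Tcf7 and Gata3. Promoters were matched by symbol, and 26 of 35 members had an entry.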

Additional observations from a re-analysis of the deposited data

How the results depend on the processing

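No member passed the adjusted threshold under any alternative run, and the median log2 fold change of the members lay between -0.43 and -0.28 when each replicate was left out in turn and was -0.22 with limma-voom. Of the 34 members, 23 were below 0 and 2 above 0 in every fit that tested them. Over all genes DESeq2 called 113 at an adjusted p of 0.05, and edgeR called 0 to 2 when 1 replicate was left out (2 without saline replicate 2). When 1 replicate was left out, members at an unadjusted p of 0.05 in edgeR numbered 1 to 9 and genes of the wider list 2 to 14. Over all genes that share was 3.35% to 11.3%. Members whose groups did not overlap numbered 7 to 17, beside 17.7% to 30.1% of all genes. Leaving out replicate 3 of both groups, chosen after seeing the data because of Schwann and skeletal muscle transcripts, gave 18 such members beside 33.2% of all genes.

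The other 9 turned in at least 1 fit. With limma-voom the cytokine receptor median was 0.24, Cd3g 0.13 and Cd3e 0.51. Without saline replicate 2 they were 0.32, 0.0098 and 0.37, and Klf2 was -0.066. Il7r was -0.16 and -0.23 with saline replicate 1 or 3 removed, and -0.035 with vasostatin-2 replicate 2 removed. Klrd1 was 0.024 and Ncr1 0.028 with saline replicate 3 removed. With vasostatin-2 replicate 3 removed, Klrd1 was 0.13, Tbx21 0.025, Eomes 0.0055 and Klf2 -0.033. Ranges over the left-out replicates were -0.35 to 0.32 for the cytokine receptor median, -0.72 to 0.0098 for Cd3g, -0.54 to 0.37 for Cd3e, -0.19 to 0.028 for Ncr1, -0.38 to 0.0055 for Eomes, -0.23 to 0.97 for Il7r, -0.38 to 0.13 for Klrd1, -0.32 to 0.025 for Tbx21 and -0.066 to 0.21 for Klf2. Without both replicates 3, Il7r was -0.17, Klrd1 0.23, Eomes 0.14, Ncr1 0.022, Foxp3 -0.11, and Ctla4 and the regulatory median -0.12. With a minimum mean of 1 CPM only Icos was left of the regulatory class, at -0.20. The cause was not tested for the others.

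Replicate numbers did not pair the samples: same-numbered libraries had deviations correlated at -0.119, 0.0251 and 0.0273, and no library was closest to its own number. With replicate number as a block, 0 members passed the adjusted threshold and 5 had an unadjusted p under 0.05 (beside 6.11% of all genes), Cd3d in addition to the 4. Members with counts near 10 carry a counting error that only deeper sequencing would lower, and intervals cover these 6 libraries only.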
